A study of Mus musculus with 6 samples.

Results

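The genes described here are the transcriptional coactivators YAP and TAZ (Yap1 and Wwtr1), their DNA-binding partner TEAD1 (Tead1) and 7 genes widely used as readouts of that complex, namely Ccn1, Ccn2, Ankrd1, Amotl2, Lats2, Ajuba and Axl. They were chosen by name, and all 10 were found among the 18124 Ensembl genes of the deposited count table and passed the filter on low counts, which kept 14644 genes. They were measured by RNA sequencing in mesenchymal stem cells of mouse skeletal muscle grown in macrophage-conditioned medium, in 3 libraries per medium. In the senescent medium group the medium came from bone marrow-derived macrophages exposed to 300 µM H2O2 for 3 hours, exposed again in the same way 3 days later, and then cultured for 14 days. In the control medium group it came from macrophages that had not been made senescent, and the sources used here do not say how long those were cultured. In both groups the stem cells carried a collagen 1-driven green fluorescent protein (Col1-GFP), were sorted as positive for that protein and for Sca-1, and came from the quadriceps of 6 naïve male mice. They were used at passage 4 after expansion, and conditioned medium was applied for 72 hours. No label ties a library to an animal, isolate or batch of medium, so the spread behind the p-values may be technical. In bulk RNA, fewer expressing cells and less RNA per cell cannot be told apart.

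In the Hippo pathway, the kinases MST1 and MST2 activate LATS1 and LATS2, which phosphorylate YAP and TAZ and hold them in the cytoplasm. When the kinases are inactive, as on stiff matrix or in well-spread cells, YAP and TAZ enter the nucleus, bind TEAD proteins and raise genes of matrix, growth and adhesion, along with genes that feed back on the pathway. In stromal cells and fibroblasts this route links matrix stiffness and cell shape to proliferation and matrix production. Much of the control acts on the proteins, which RNA counts do not measure.

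Library totals ran from 17228162 to 21659434 estimated counts over the 6 libraries. Levels are given as CPM, counts scaled to library size after TMM adjustment. Here and below ± is the SD of 3 libraries after a level or ratio and the standard error after a log2 fold change. The sorting marker Ly6a (Sca-1) was abundant in both media, at 1235 ± 46.8 CPM in senescent medium and 1206 ± 44.7 CPM in control medium. So was Col1a1, at 7516 ± 228.5 CPM in senescent medium and 5361 ± 69.8 CPM in control medium. Col1a1 is the collagen gene itself, not the green fluorescent protein used for sorting. Both genes belong to a list of 10 stromal markers, of which 9 were tested, 6 were higher and 2 were lower. The lower ones were Pdgfra and Pdgfrb (log2 fold changes -0.29 ± 0.036 and -0.30 ± 0.034), and Lum, at about 0.1 CPM, was not tested. Of 10 macrophage markers, 6 were not listed, among them Ptprc and Adgre1, and the listed ones summed to between 15.0 and 20.1 CPM per library in senescent medium and between 11.9 and 14.3 CPM in control medium. Of the 3 tested, Lyz2 was higher (log2 fold change 0.80 ± 0.12), Csf1r was lower (-0.53 ± 0.19) and Cd68 did not pass. Of 6 myogenic markers, Pax7, Myf5, Myod1 and Myog were not listed, and Des (desmin), the only one tested, was higher, at 5.15 ± 0.77 CPM in senescent medium and 1.62 ± 0.25 CPM in control medium (log2 fold change 1.65 ± 0.20, adjusted p = 4.30e-08, edgeR). Of 6 markers of smooth muscle or pericytes, Des among them, 3 were higher and 2 were lower, and they summed to between 1306 and 1386 CPM per library in senescent medium and between 1237 and 1304 CPM in control medium, most of it Acta2. In that list Cspg4 was higher (log2 fold change 0.97 ± 0.14) and Myh11 and Mcam were lower (-0.998 ± 0.11 and -0.98 ± 0.18). Of 6 endothelial markers the 4 listed summed to between 26.3 and 33.2 CPM per library in senescent medium. In control medium they summed to between 24.2 and 26.5 CPM, most of it Tek. Of the 3 tested, Kdr was higher (log2 fold change 1.25 ± 0.34) and the others did not pass. Of 4 glial markers the 3 listed summed to between 9.98 and 10.3 CPM in senescent medium and 7.99 to 9.92 in control medium. Of these, 2 were tested and did not pass. The part of these markers in the results below was not tested.

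The stretch upstream of the start site is shown for the 4 of the 10 genes that were lower in senescent medium and have a promoter in the RefSeq table, and for Axl, which did not pass the test. Each is the 250 bases before the start, 5′ to 3′ on the gene's strand, and capitals mark the TEAD motif CATTCC or its reverse complement GGAATG.
Yap1: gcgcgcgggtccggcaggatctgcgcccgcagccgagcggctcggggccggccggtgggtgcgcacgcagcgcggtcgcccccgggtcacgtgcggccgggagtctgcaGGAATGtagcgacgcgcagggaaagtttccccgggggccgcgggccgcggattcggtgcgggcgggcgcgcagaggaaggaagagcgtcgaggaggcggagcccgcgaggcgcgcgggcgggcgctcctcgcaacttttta
Wwtr1: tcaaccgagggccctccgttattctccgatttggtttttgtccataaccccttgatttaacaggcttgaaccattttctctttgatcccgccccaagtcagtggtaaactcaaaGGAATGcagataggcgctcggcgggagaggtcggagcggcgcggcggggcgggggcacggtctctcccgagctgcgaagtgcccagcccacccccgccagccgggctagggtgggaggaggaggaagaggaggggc
Ccn1: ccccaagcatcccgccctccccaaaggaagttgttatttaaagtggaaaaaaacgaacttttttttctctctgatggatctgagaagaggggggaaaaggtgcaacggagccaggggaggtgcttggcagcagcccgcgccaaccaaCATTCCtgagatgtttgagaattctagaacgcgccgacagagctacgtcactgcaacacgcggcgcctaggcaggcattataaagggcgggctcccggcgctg
Ajuba: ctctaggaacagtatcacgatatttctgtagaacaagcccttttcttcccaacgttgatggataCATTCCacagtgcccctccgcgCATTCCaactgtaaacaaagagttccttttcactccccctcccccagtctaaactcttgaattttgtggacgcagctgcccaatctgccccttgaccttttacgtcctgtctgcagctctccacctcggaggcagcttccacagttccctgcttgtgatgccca
Axl: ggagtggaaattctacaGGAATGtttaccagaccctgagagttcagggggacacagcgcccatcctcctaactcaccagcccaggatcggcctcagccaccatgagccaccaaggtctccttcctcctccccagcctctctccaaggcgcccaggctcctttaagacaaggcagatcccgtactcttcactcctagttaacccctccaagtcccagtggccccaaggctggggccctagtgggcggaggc
These lie on the minus strand at chr9:8004597-8004846, chr3:57575911-57576160, chr3:145649986-145650235, chr14:54577662-54577911 and chr7:25788734-25788983, in the order printed, from RefSeq on GRCm38.p6, a build older than the mm39 named for the counts. The Yap1 motif began 141 bases before the start and the Wwtr1 motif 136 bases before it, both on the opposite strand. The table has a second start for Wwtr1, further into the gene, and the same motif began 170 bases before that one. Ccn1 held 1 motif on its own strand, 103 bases before the start, and Ajuba held 2, beginning 186 and 164 bases before it. For Ajuba, unlike the other genes printed, the bases after the RefSeq start lay in no transcript of the GENCODE annotation, so whether it is the start used in these cells is not known. Searching both strands from 250 bases before to 50 after the start, all 8 genes with a promoter in the table (10 windows, 9 with the motif) held at least 1 match. Besides the genes printed these were Amotl2, Ankrd1 and Lats2. The only Lats2 match lay after the start, at bases 5 to 10, and the second Lats2 window held none. All 250 bases before the Ankrd1 start, and 136 of those before the Amotl2 start, lay in GENCODE exons of the same gene. Whether these are the starts used in these cells is not known either. Among all 32851 RefSeq windows of the same length, 14.7% held the motif, and 16.6% of all 27025 genes had at least 1 window with it. For genes listed in the counts these shares were 12.5% of windows and 14.7% of genes. The 10 genes were named for their link to TEAD, so their share with the motif is not independent of that choice. The CArG box, the binding motif of SRF, a factor that shares many targets with YAP and TAZ, was in none of the 10 windows and in 1.63% of all windows. The motif was thus found in genes called lower, in Lats2, which was called higher, and in Amotl2, Ankrd1 and Axl, which were not called.

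Both coactivator genes were lower in senescent medium, Wwtr1 by 27.0% and Yap1 by 21.6%, and these were the largest changes among the 10 genes. In all, 5 of the 10 were lower (Wwtr1, Yap1, Ajuba, Tead1 and Ccn1), 2 were higher (Ccn2 and Lats2) and 3 did not pass the test (Ankrd1, Amotl2 and Axl). The test was edgeR's quasi-likelihood test with Benjamini-Hochberg adjustment over all genes tested, at an adjusted p under 0.05. Calls were common in these data. Over all genes tested 49.5% passed, 24.9% as lower and 24.6% as higher, so the count of 7 of 10 says little that is particular to these genes. None of the 10 changed by 1.5-fold or more, which 13.7% of all genes did together with an adjusted p under 0.05. The median absolute log2 fold change was 0.14 over the 10 genes and 0.23 over all genes tested.

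**Figure D1:**
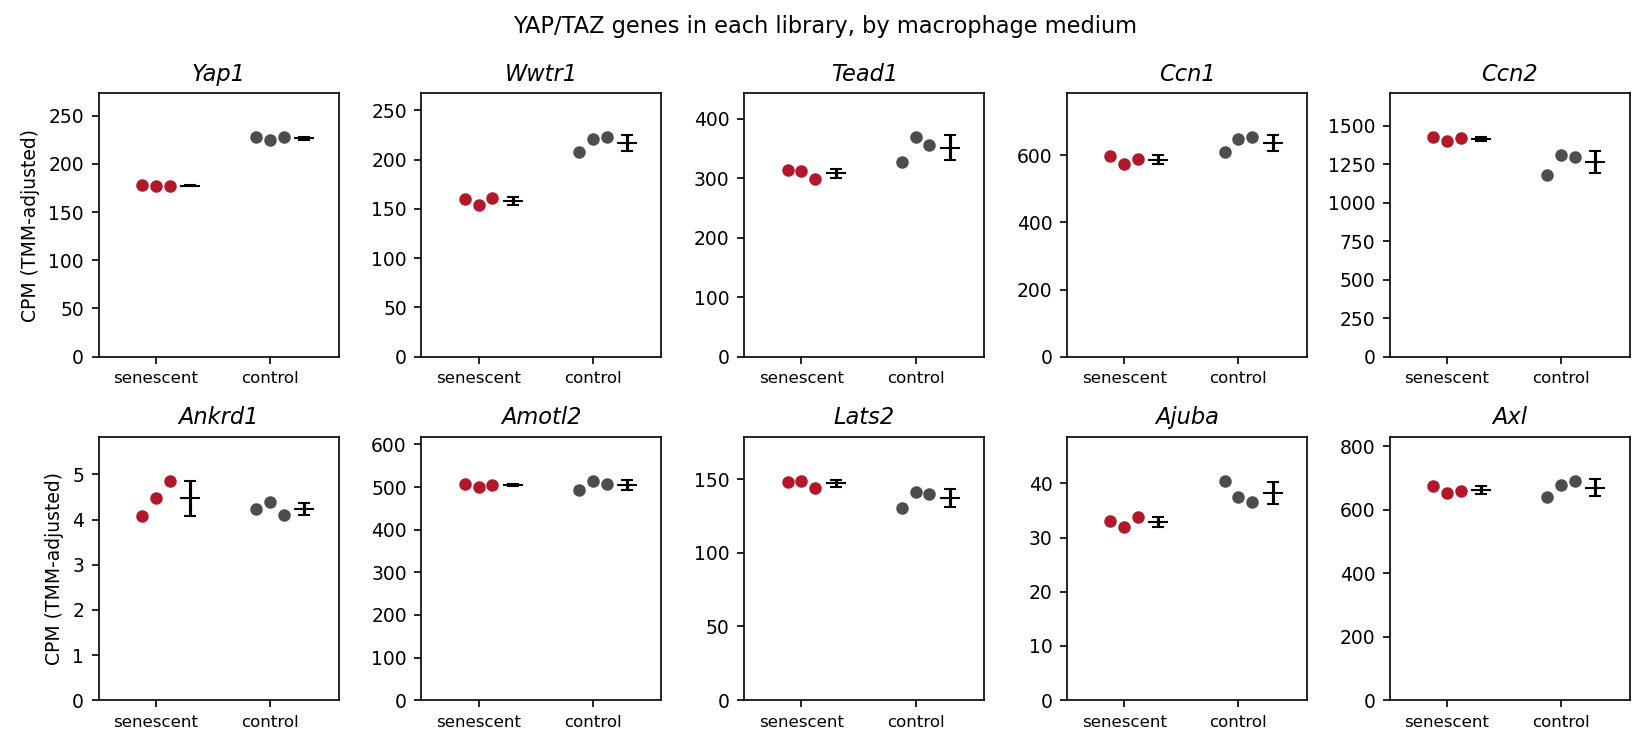
CPM on the y axis (counts relative to the TMM-adjusted size of each library) for each of the 10 genes, with senescent medium libraries in red and control medium libraries in grey, and the mean with SD beside each group (n = 3). Yap1 and Wwtr1 sit lower in every senescent medium library, Ccn2 sits higher, and the libraries of both media overlap for Ankrd1, Amotl2 and Axl.

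Yap1 (ENSMUSG00000053110), which encodes YAP, had 178, 177 and 177 CPM in the senescent medium libraries, against 227, 224 and 228 CPM in the control medium libraries. The libraries of a medium lay within a few CPM of each other and the media did not overlap. Its log2 fold change was -0.35 ± 0.035 (adjusted p = 7.06e-10, edgeR). Wwtr1 (ENSMUSG00000027803), the gene of the paralog TAZ, had 160, 154 and 161 CPM in senescent medium, against 207, 221 and 222 CPM in control medium. Every senescent medium library was again below every control library, and the log2 fold change was -0.45 ± 0.038 (adjusted p = 1.65e-11, edgeR). The libraries of both media were separate for 7 of the 10 genes, beside 55.8% of all genes tested, with 5 lower (28% of all genes) and 2 higher (27.8%) in senescent medium.

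Per kilobase of exon, TAZ transcript was the more abundant of the pair in both media. Exon length here is that of all annotated exons of a gene merged, 9257 bases for Yap1 and 4779 for Wwtr1. The transcripts present in these cells may be shorter. In CPM, without division by length, Yap1 was the higher of the pair in both media, so the order rests on these lengths. Wwtr1 stood at 33.1 ± 0.84 CPM per kb in senescent medium and 45.4 ± 1.74 CPM per kb in control medium, and Yap1 at 19.2 ± 0.078 CPM per kb in senescent medium and 24.5 ± 0.19 CPM per kb in control medium. The ratio of Wwtr1 to Yap1 was 1.74, 1.68 and 1.76 in the senescent medium libraries, against 1.77, 1.91 and 1.89 in the control medium libraries. A ratio within a library does not depend on how libraries are scaled, and this one was lower in senescent medium with no overlap, though the nearest libraries differed by little. Together the coactivators came to 52.3 ± 0.89 CPM per kb in senescent medium and 69.8 ± 1.68 CPM per kb in control medium.

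Tead1 (ENSMUSG00000055320), the DNA-binding partner that brings YAP and TAZ to their targets, had 314, 312 and 299 CPM in senescent medium, against 328, 369 and 357 CPM in control medium. All senescent medium libraries were below all control libraries (log2 fold change -0.19 ± 0.039, adjusted p = 0.000167, edgeR). Its relatives Tead2 and Tead3, which bind the same motif, were lower as well, with log2 fold changes of -0.34 ± 0.057 and -0.33 ± 0.058. Tead4 was scarce, at 2.04 ± 0.51 CPM in senescent medium and 1.80 ± 0.39 CPM in control medium, and did not pass the test (log2 fold change 0.19 ± 0.26, adjusted p = 0.570, edgeR). Per length, Tead1 made up 61.9 ± 0.80% of all TEAD transcript in senescent medium and 59.8 ± 1.89% in control medium. Summed over the family, TEAD transcript was 36.7 ± 0.56 CPM per kb in senescent medium and 43.3 ± 1.30 CPM per kb in control medium. The ratio of coactivator to TEAD transcript was 1.43, 1.38 and 1.47 in senescent medium libraries, against 1.62, 1.58 and 1.64 in control medium libraries, lower with no overlap. The size of this ratio and the share of Tead1 rest on the merged exon lengths, 13570 bases for Tead1. In CPM, without division by length, Tead1 was higher than Yap1 and than Wwtr1 in both media.

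Vestigial-like proteins bind TEADs and can compete there with YAP and TAZ. Of that family's genes Vgll3 was higher, at 499 ± 7.00 CPM in senescent medium and 459 ± 26.3 CPM in control medium (log2 fold change 0.12 ± 0.037), a call that was lost with library totals. Vgll4, a repressor of TEAD activity, was lower, at 29.6 ± 2.55 CPM in senescent medium and 35.7 ± 2.76 CPM in control medium (log2 fold change -0.27 ± 0.071). Vgll1 and Vgll2 were not listed. Of the 5 listed TEAD and vestigial-like genes other than Tead1, 3 were lower, 1 was higher and 1 did not pass (80% called, beside 49.5% of all genes tested).

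**Figure D2:**
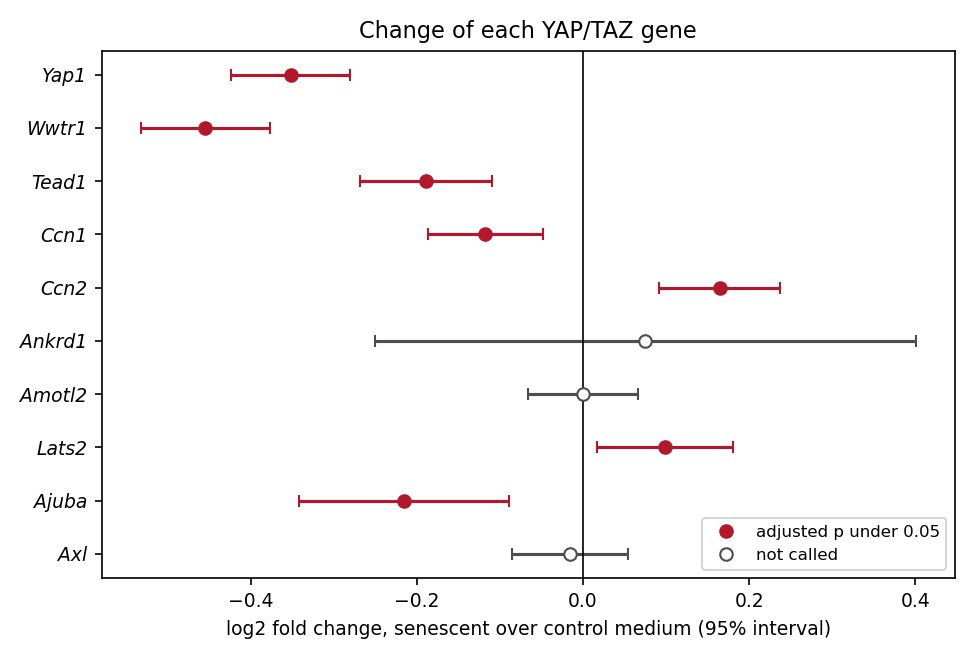
Log2 fold change of each of the 10 genes, senescent over control medium, on the x axis, with its 95% interval from the edgeR fit; filled red points passed an adjusted p under 0.05 and open points did not. The coactivators lie farthest below 0, Ccn2 and Lats2 lie above it, and the interval of Amotl2 is narrow around 0 while that of Ankrd1 is wide.

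The secreted CCN proteins are the best known YAP and TAZ targets, and their genes moved in opposite directions. Ccn1 (ENSMUSG00000028195, also Cyr61), a matricellular protein that binds integrins, had 598, 573 and 590 CPM in senescent medium, against 611, 647 and 653 CPM in control medium. Its libraries did not overlap between media, but the nearest were close, and its log2 fold change was -0.12 ± 0.034 (adjusted p = 0.00502, edgeR). Without senescent medium replicate 2 this call was lost (log2 fold change -0.099, adjusted p = 0.0547, edgeR; 1.67e-05 to 0.0547 over all alternatives). Ccn2 (ENSMUSG00000019997, also Ctgf), a matricellular protein linked to fibrosis and induced by TGF-beta as well, had 1425, 1399 and 1419 CPM in senescent medium, against 1180, 1308 and 1298 CPM in control medium. All senescent medium libraries were above all control libraries, by 0.16 ± 0.036 on the log2 scale (adjusted p = 0.000310, edgeR). Of its annotated exon length 23.2% overlaps the noncoding gene Gm15270 on the opposite strand, and whether counting used strand is not given. That gene had between 5.3 and 13.8 estimated counts per library, and Ccn2 at least 20935.

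With libraries scaled by their totals alone the rise of Ccn2 missed the threshold (log2 fold change 0.083, adjusted p = 0.0525, edgeR). The ratio of Ccn2 to Ccn1, which no scaling changes, was 1.68, 1.72 and 1.70 per length in senescent medium libraries, against 1.36, 1.43 and 1.40 in control medium libraries. It was higher in senescent medium with no overlap and a spread within each medium far smaller than the gap. Both genes were also higher relative to their coactivators. Ccn1 stood at 5.56 ± 0.055 times the summed Yap1 and Wwtr1 transcript per length in senescent medium and 4.52 ± 0.056 times in control medium, and Ccn2 at 9.46 ± 0.081 times in senescent medium and 6.31 ± 0.22 times in control medium. So Ccn1 was lower, but by a smaller proportion than the coactivators.

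**Figure D3:**
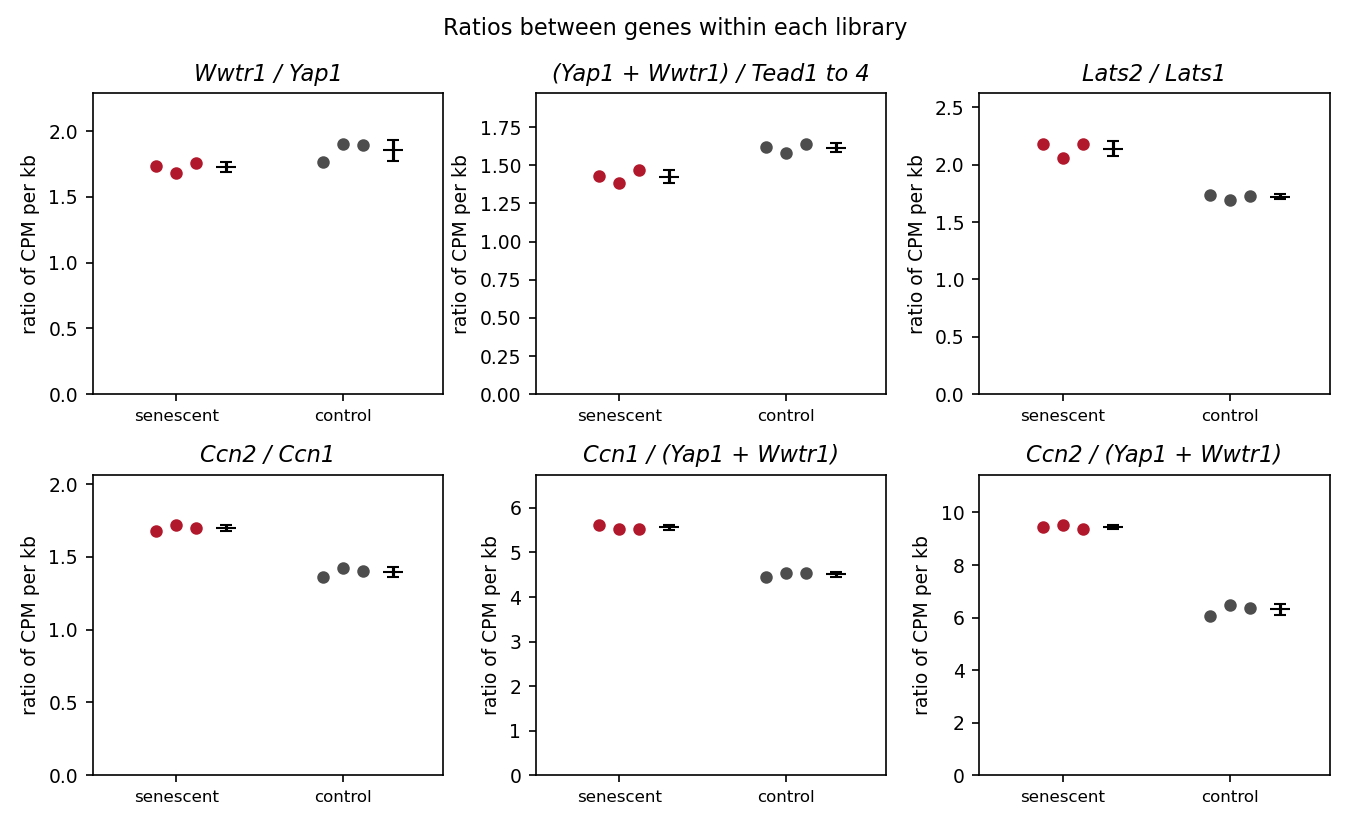
Ratios of CPM per kilobase of exon between pairs or sums of genes within each library, with senescent medium in red and control medium in grey, and mean with SD beside each group (n = 3). The ratios Ccn2 to Ccn1, Lats2 to Lats1 and both CCN genes to Yap1 plus Wwtr1 are higher in every senescent medium library, and Wwtr1 to Yap1 and the coactivators to the TEAD genes are lower.

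The other listed CCN genes also split. Ccn3 was higher, at 44.5 ± 1.99 CPM in senescent medium and 19.0 ± 1.93 CPM in control medium (log2 fold change 1.23 ± 0.071, adjusted p = 2.75e-15, edgeR). Ccn4 and Ccn5 were lower, with log2 fold changes of -0.42 ± 0.045 and -0.37 ± 0.035. Ccn6 was not listed. Per length Ccn5 was as abundant a family member as Ccn2 in control medium, at 339 ± 6.10 CPM per kb in senescent medium and 438 ± 19.2 CPM per kb in control medium, while Ccn2 stood at 494 ± 4.79 CPM per kb in senescent medium and 441 ± 24.9 CPM per kb in control medium.

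Ankrd1 (ENSMUSG00000024803), a cardiac and muscle ankyrin repeat protein and a standard reporter of YAP activity, was the scarcest of the 10. It had 4.08, 4.47 and 4.86 CPM in senescent medium, against 4.23, 4.38 and 4.11 CPM in control medium, from 73 to 101 counts per library. The media overlapped and the gene did not pass (log2 fold change 0.075 ± 0.16, adjusted p = 0.725, edgeR). Its 95% interval ran from -0.25 to 0.40 on the log2 scale, a range that holds changes as large as those of Ccn1, Ccn2 and Tead1 in either direction at this depth. Its relative Ankrd23, which shares 78.2% of its exon length with another gene on the same strand, did not pass either, and Ankrd2 was not listed.

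Among the feedback genes Amotl2 showed no detectable difference and Lats2 a small rise. Amotl2 (ENSMUSG00000032531) encodes an angiomotin family protein that binds YAP and keeps it out of the nucleus. It had 507, 501 and 506 CPM in senescent medium, against 493, 515 and 507 CPM in control medium, with overlap and an adjusted p of 0.9998 (edgeR). The 95% interval of its log2 fold change ran from -0.067 to 0.067, narrower than the change of either coactivator. Its relative Amotl1 was higher, at 211 ± 1.43 CPM in senescent medium and 144 ± 6.82 CPM in control medium (log2 fold change 0.55 ± 0.039, adjusted p = 2.58e-13, edgeR).

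Lats2 (ENSMUSG00000021959), the kinase that phosphorylates YAP and TAZ and is itself induced by them, had 148, 149 and 144 CPM in senescent medium, against 130, 141 and 140 CPM in control medium. The media did not overlap, and the log2 fold change of 0.099 ± 0.040 was just past the threshold (adjusted p = 0.0413, edgeR). This call was lost at much the same log2 fold change in edgeR without senescent medium replicate 1 (0.094, adjusted p = 0.105) or 2 (0.092, adjusted p = 0.124), and when DESeq2 was used (0.10, adjusted p = 0.0837). It was lost at a smaller one in edgeR without control medium replicate 1 (0.060, adjusted p = 0.194) and with library totals (0.018, adjusted p = 0.737). Over all alternatives its adjusted p ran from 0.0149 to 0.737. In the annotation 42.4% of its exon length is shared with the overlapping gene Gm49361 on the same strand, which the table did not list. Its paralog Lats1 was lower, at 72.0 ± 3.28 CPM in senescent medium and 83.5 ± 4.62 CPM in control medium (log2 fold change -0.22 ± 0.049, adjusted p = 0.000472, edgeR). The ratio of Lats2 to Lats1 per length was 2.18, 2.06 and 2.18 in senescent medium libraries, against 1.74, 1.70 and 1.73 in control medium libraries, higher with no overlap and under any scaling. The larger part of that difference is the lower Lats1, not the higher Lats2. How many other gene pairs have ratios that separate in this way was not counted.

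Ajuba (ENSMUSG00000022178), a LIM protein that binds LATS kinases at junctions and restrains them under tension, had 33.0, 31.9 and 33.7 CPM in senescent medium, against 40.5, 37.5 and 36.6 CPM in control medium. Senescent medium libraries were all lower (log2 fold change -0.22 ± 0.062, adjusted p = 0.00449, edgeR). Axl (ENSMUSG00000002602), a receptor tyrosine kinase of the TAM family, had 675, 653 and 657 CPM in senescent medium, against 638, 678 and 690 CPM in control medium. The media overlapped. The log2 fold change was -0.016 ± 0.034 (adjusted p = 0.736, edgeR), with a 95% interval from -0.086 to 0.054. Its ligand gene Gas6 was lower, at 1144 ± 24.0 CPM in senescent medium and 1499 ± 63.3 CPM in control medium (log2 fold change -0.39 ± 0.034). The related receptor Tyro3 and the ligand Pros1 were lower as well, with log2 fold changes of -0.49 ± 0.063 and -0.16 ± 0.036, and Mertk, at about 1 CPM, did not pass.

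The order of level per length rests on the merged exon lengths and differs from that in CPM. In order of level per length the 10 genes spanned a wide range and kept much the same order in both media. Ccn2 was highest, followed by Ccn1, Axl at 131 ± 2.24 CPM per kb in senescent medium and 133 ± 5.40 CPM per kb in control medium, Amotl2 at 80.3 ± 0.48 CPM per kb in senescent medium and 80.3 ± 1.72 CPM per kb in control medium, and Wwtr1. Tead1, Lats2, Yap1, Ajuba and Ankrd1 followed in senescent medium, where the libraries of no neighbouring pair overlapped. In control medium Yap1 stood above Lats2, and Tead1 and Yap1 overlapped, at 25.9 ± 1.56 and 24.5 ± 0.19 CPM per kb. Ankrd1 was lowest in both, at 1.55 ± 0.13 CPM per kb in senescent medium and 1.47 ± 0.048 CPM per kb in control medium.

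Genes of the wider pathway were called in both directions. Of 29 Hippo kinases and upstream regulators (Lats2, Amotl2 and Ajuba left out), 8 were higher, 10 were lower and 11 did not pass, with a median log2 fold change of -0.097. That is 62.1% called, beside 49.5% of all genes tested, so the count says little that is particular to this list. By smallest adjusted p the leading ones included Amotl1, Rassf1, a scaffold that binds MST kinases (log2 fold change 0.64 ± 0.053), and Map4k5, of a kinase family whose members can activate LATS (-0.52 ± 0.050). Of the exon length of Rassf1, 42.7% overlaps an antisense gene, Gm9917. That gene had between 21.4 and 50.6 estimated counts per library, and Rassf1 at least 716.

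Of 15 tested genes of a published human YAP and TAZ target signature that are not among the 10, taken by mouse symbol, 7 were higher, 4 were lower and 4 did not pass, with a median log2 fold change of 0.072. Calls thus came to 73.3%, beside 49.5% of all genes tested. Ccdc80, a secreted matrix protein, was higher at 1044 ± 9.54 CPM in senescent medium and 649 ± 12.4 CPM in control medium (log2 fold change 0.69 ± 0.032). Gadd45a, a growth arrest gene also induced by p53 and ATF4, was higher by 1.40 ± 0.079 on the log2 scale, with 19.1% of its exon length under an overlapping gene on the opposite strand. The overlapping gene had between 6.06 and 19.3 estimated counts per library, and Gadd45a at least 222. Nuak2, a kinase that supports YAP activity, was higher by 0.82 ± 0.074. Tissue factor, F3, which starts coagulation, was lower (log2 fold change -0.45 ± 0.035).

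Of 23 further genes often measured as targets, 12 were higher, 5 were lower and 6 did not pass, with a median of 0.16. Here 73.9% were called, beside 49.5% of all genes tested. Ccnd1, which encodes cyclin D1, and Col8a1, a short-chain collagen, were higher by 0.66 ± 0.034 and 0.69 ± 0.039 on the log2 scale. Of the exon length of Ccnd1, 23.4% overlaps LTO1, a listed gene on the opposite strand. Sgk1, a kinase induced by serum, glucocorticoids and osmotic stress, was lower at 72.2 ± 3.16 CPM in senescent medium and 177 ± 4.16 CPM in control medium (log2 fold change -1.29 ± 0.042, adjusted p = 2.23e-21, edgeR). Birc5, the gene of survivin, which is also a mitotic gene, was lower by 1.51 on the log2 scale (log2 fold change -1.51 ± 0.095). With library totals 7 of these 23 were higher.

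Genes of SRF, actin and focal adhesions, a neighbouring response to tension, were called in 22 of 23 cases, 14 higher and 8 lower, with a median of 0.13. This was 95.7% called, beside 49.5% of all genes tested. The changes were small, with a median absolute log2 fold change of 0.19, beside 0.23 over all genes tested. A fold of at least 1.5, whatever the p-value, was seen in 4.35% of this list and 16.4% of all genes. The share called therefore does not mean larger changes than in other genes. Actg1 and Flna, which encode cytoplasmic actin and an actin crosslinker, were higher by 0.33 ± 0.031 and 0.34 ± 0.033 on the log2 scale. The SRF coactivator gene Mrtfa and the smooth muscle gene Cnn1 were lower, with log2 fold changes of -0.49 ± 0.052 and -0.56 ± 0.049. Acta2, also in this list, was higher (log2 fold change 0.093 ± 0.034), and the smooth muscle or pericyte markers given above went both ways. Over these 7 lists and the Ankrd1 relatives, each gene counted once, 42 of 101 tested genes were higher and 34 were lower, beside 24.6% and 24.9% of all genes tested. With library totals the balance turned round, with 28 higher and 38 lower.

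**Figure D4:**
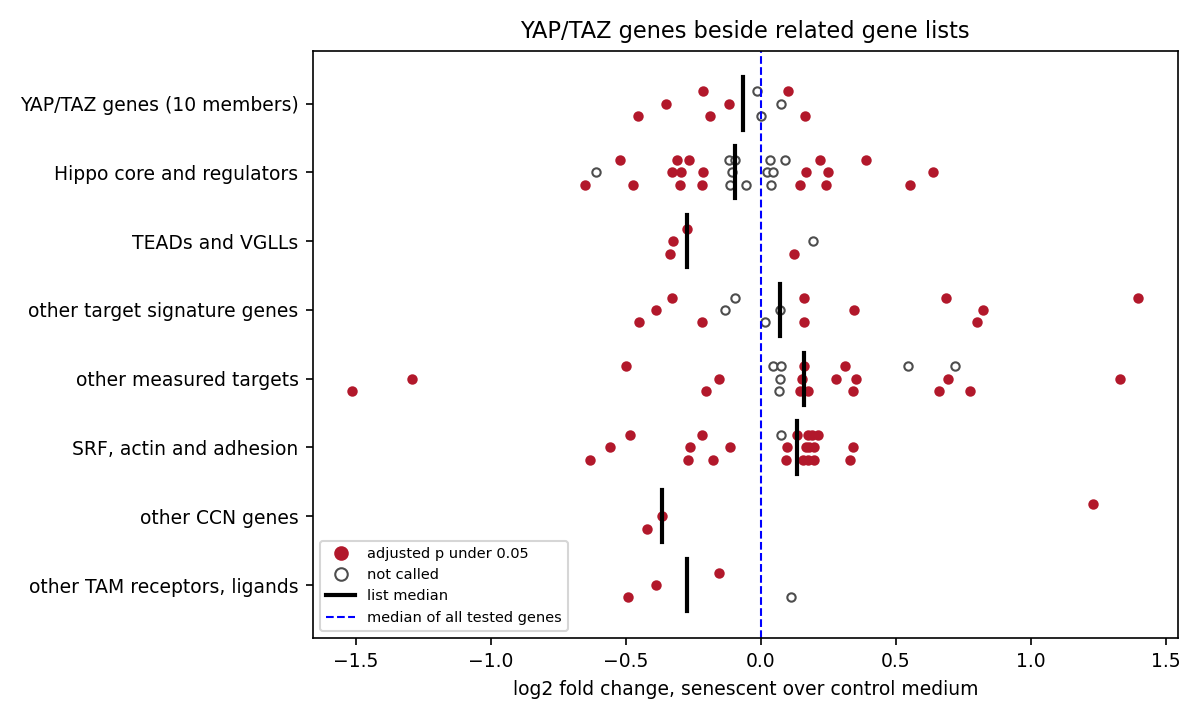
Log2 fold change, senescent over control medium, of each tested gene in the YAP/TAZ group and 7 related lists; filled red points passed an adjusted p under 0.05, open points did not, the black bar is the list median and the dashed blue line is the median of all genes tested. The 10 genes lie within 0.5 of 0, while single genes of the target lists reach beyond 1 in both directions.

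Among 10233 genes with a proper name and at least 5 CPM, the profiles over the 6 libraries nearest to that of Ccn1 by root mean square difference of centred log2 CPM were Smarcc1, a chromatin remodelling subunit (0.0069), Katnal1 (0.012) and Ddx19a (0.014). For Ccn2 they were Ccdc59 (0.0088), Adamts1 (0.014) and Glce (0.014), and for Ankrd1 they were Dram2 (0.027), Hectd3 (0.028) and Mzt1 (0.035). Ankrd1 itself lay below 5 CPM, so its profile rests on only 73 to 101 counts per library. Katnal1, Ddx19a, Ccdc59, Dram2, Hectd3 and Mzt1 did not pass the test between media. Adamts1, a secreted protease, had 432 ± 4.41 CPM in senescent medium and 386 ± 21.1 CPM in control medium. With 6 libraries in 2 groups, genes with a like difference between the media come out near each other by this measure.

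Since most changes here were small, the scaling of the libraries decided several calls. With library totals alone all 10 log2 fold changes were lower by about 0.08, the shift of the median of all genes being -0.081, and no gene was called higher and 7 were called lower, Amotl2 (log2 fold change -0.081, adjusted p = 0.0375, edgeR) and Axl (-0.097, adjusted p = 0.0182, edgeR) among them. Over all genes that scaling gave 2589 higher and 4813 lower calls, against 3607 higher and 3644 lower with TMM factors. Yap1, Wwtr1, Tead1 and Ajuba were lower and past the threshold in each of the 15 other fits.

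**Figure D5:**
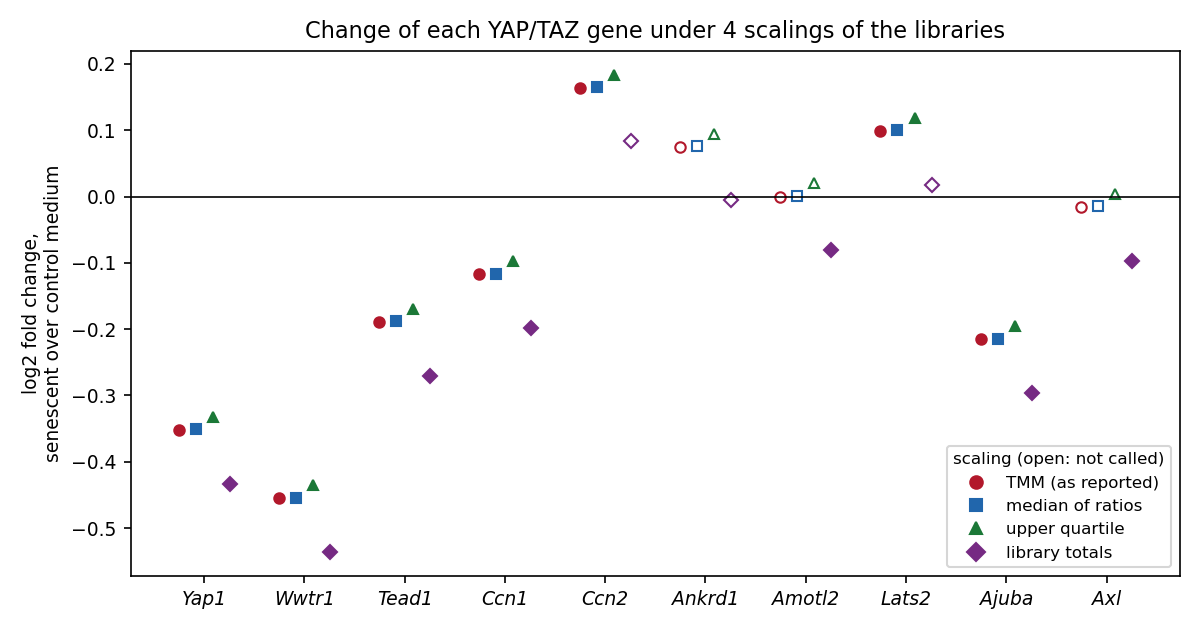
Log2 fold change of each of the 10 genes, senescent over control medium, under TMM factors, median-of-ratios factors, upper-quartile factors and library totals alone; open symbols did not pass an adjusted p under 0.05. With library totals every gene lies lower, Ccn2 and Lats2 are no longer called, and Amotl2 and Axl are called lower.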

How the data were processed

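Estimated counts, not normalized, were deposited by the authors for each Ensembl gene in 6 libraries. The submitters' processing notes name STAR, DESeq2 and mm39, without a role; counter, annotation and strandedness were not given in the sources used here. RNA (about 600 ng per sample) was sequenced as paired 150 bp reads, per the labels' protocols. The 18124 genes listed each sum to 10 counts or more, so an unlisted gene has no value here. Symbols and exon lengths came from GENCODE M21 (GRCm38), matched for 18092 genes (99.8%); Ccn1 and Ccn2 are its names for Cyr61 and Ctgf.

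Counts were rounded and tested in edgeR 4.0.16 (R 4.3.3) with TMM factors, its expression filter and a robust quasi-likelihood F-test. Medium was the only term, and the p-values were two-sided and adjusted over 14644 genes. The procedure was tested on simulated data with far fewer changed genes than were called here. That simulation therefore does not settle the error rate in these data. Standard errors are the absolute log2 fold change over the square root of F. CPM use TMM-adjusted library sizes. Libraries with the same replicate number did not deviate together (correlations 0.019, 0.0019 and 0.026), so no block was used. Alternatives were DESeq2 1.42.0, limma-voom (limma 3.58.1), other scalings, filters and thresholds, a replicate block, each library left out, and, added after the data were seen, removal of the most abundant feature. Named besides the 10 genes were the 4 genes of each related list with the smallest adjusted p and at least 5 CPM, a fixed set of TEAD, LATS and vestigial-like genes, and the 3 nearest profiles of Ccn1, Ccn2 and Ankrd1; Vgll1, Vgll2, Ccn6, Mertk, Ankrd2 and Ankrd23 are named outside that rule, and 1 gene that the rule selects is not reported here. The genes and lists were chosen with earlier results of these data known.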

Additional observations from a re-analysis of the deposited data

How the results depend on the processing

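Of 150 values (10 genes, 15 alternatives each), 133 kept their direction and side of the threshold. Among the 10 genes, Yap1, Wwtr1, Tead1 and Ajuba did so in all 15. The 2 genes called higher became 1 with DESeq2 or a threshold of 0.01, 0 with library totals, 0 with an added fold of at least 1.5, and 1 to 2 with a library left out; the 5 called lower became 0 with that fold, 7 with library totals, and 4 to 5 with a library left out. The cause was not tested. With the fold, 980 of all genes were higher and 1033 lower, and 10 and 4 of the related lists. Sign changes were confined, among the 10, to genes not called: Ankrd1 with library totals (-0.0050; 0.011 without senescent medium replicate 3 to 0.14 without replicate 1), Amotl2 with limma-voom (-0.00015), library totals (-0.081) and at least 1 CPM in 3 libraries (-0.0014), and -0.019 to 0.014 with a library left out, and Axl with upper-quartile factors (0.0040), and -0.050 to 0.0057 with a library left out. Other uncalled genes did so too: Hectd3 (-0.045) and Mzt1 (-0.016) with library totals, and, over fits without 1 library, Hectd3 (-0.0052 to 0.084) and Tead4 (-0.021 to 0.38). The rise of Vgll3 was lost with library totals (log2 fold change 0.042, adjusted p = 0.366, edgeR). The replicate block changed no call among the 10 genes (2 higher and 5 lower), and gave 3704 higher and 3698 lower genes in all. Ankrd1, at 73 to 101 counts per library, is the member that depth limits most.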
